A study of Homo sapiens with 30 samples.

Results

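The genes described here are 10 genes of serine synthesis and of the stress programme around the transcription factor ATF4: PHGDH, PSAT1, PSPH, ASNS, SHMT2, CHAC1, TRIB3, DDIT3, ATF4 and SESN2. They were taken by gene name, and all 10 were found among the 58288 genes of the first experiment's table and the 20073 genes of the second's. These genes and the related lists were chosen with earlier results of these data known. Their counts beside the shares of all genes are therefore a description and not a test of the set. RNA was sequenced from UMUC1 cells, an established line from a human bladder cancer. UTX, the histone H3K27 demethylase encoded by KDM6A, carries a loss-of-function mutation in this line, so all groups share that background. The first experiment held cells with wild type UTX (UTX), with UTX carrying both H1146A and E1148A (HEAA) or with the empty vector (EV), each stable in pSIN-puro. Each was grown in sphere medium, which was MEM without serum but with B27 free of vitamin A and with the growth factors FGF2 and EGF, each at 20 ng/ml, or in full medium, which was MEM with 10% fetal bovine serum. The second experiment held UTX or EV in pCDH-blasticidin beside FGFR3 with S249C, a mutation known from bladder cancer, or wild type FGFR3, both in pBabe-puro, all in full medium. Cells were harvested on day 3 after plating, and each of the 10 groups had 3 libraries. The model has limits: the vectors were stable transgenes in a single cell line, the sources used here do not give whether a line is 1 clone, and reads from a vector could not be told apart from those of the cell's own KDM6A or FGFR3. The labels also do not say whether replicates were separate cultures, so the p-values measure a spread between libraries that may be technical.

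Cells make serine from a glycolytic intermediate in a short pathway of PHGDH, PSAT1 and PSPH, and the mitochondrial enzyme SHMT2 then passes a carbon unit of serine to folate. When amino acids run short or proteins misfold, kinases phosphorylate the translation factor eIF2, translation slows, and ATF4 protein is made preferentially from its existing RNA. ATF4 is known to switch on serine synthesis, ASNS, amino acid transporters and tRNA synthetases, and under lasting stress it raises DDIT3, which encodes the factor CHOP, with TRIB3, CHAC1 and SESN2.

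The gene spans below are those of GENCODE v29 on GRCh38, matched by name, while the submitters' processing notes name hg19 and GRCh37. On the plus strand lie PHGDH at chr1:119648411-119744226, PSAT1 at chr9:78297143-78330093, SHMT2 at chr12:57229327-57234935 and ATF4 at chr22:39519695-39522685, and also TRIB3 at chr20:362835-397559, CHAC1 at chr15:40952962-40956519 and SESN2 at chr1:28259527-28282491. On the minus strand lie PSPH at chr7:56011051-56051604, ASNS at chr7:97852118-97872542 and DDIT3 at chr12:57516588-57521737.

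ATF4 dimers bind a composite element whose core is written here as TGATGNAA. RefSeq promoter windows on GRCh38.p14, from 250 bases before to 50 after a start, were matched by symbol for 8 of the 10 genes, in 13 windows, with none for PSPH and SHMT2. The core, searched on both strands, was present in a window of ASNS and a window of CHAC1, thus in 2 of the 8 genes, against 4.46% of 27305 genes and 3.62% of 35116 windows. In ASNS the match lay at chr7:97872469-97872476, 60 bases before that start, and in CHAC1 at chr15:40953262-40953269, 201 bases before the start, where the strand shown reads TTGCATCA. GENCODE v29 places the outer ends of both genes farther upstream, so other transcripts may run through these stretches. The 250 bases before the start are given for these genes and, because PSAT1 had the pattern of levels nearest to ASNS, for PSAT1, where no match was found. Capitals mark the core.
ASNS (chr7:97872409-97872658, minus strand): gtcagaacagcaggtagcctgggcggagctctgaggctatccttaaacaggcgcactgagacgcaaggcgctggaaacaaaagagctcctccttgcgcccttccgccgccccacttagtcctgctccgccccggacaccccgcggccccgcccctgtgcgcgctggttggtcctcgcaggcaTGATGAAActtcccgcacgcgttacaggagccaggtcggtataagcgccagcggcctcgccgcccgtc
CHAC1 (chr15:40953221-40953470, plus strand): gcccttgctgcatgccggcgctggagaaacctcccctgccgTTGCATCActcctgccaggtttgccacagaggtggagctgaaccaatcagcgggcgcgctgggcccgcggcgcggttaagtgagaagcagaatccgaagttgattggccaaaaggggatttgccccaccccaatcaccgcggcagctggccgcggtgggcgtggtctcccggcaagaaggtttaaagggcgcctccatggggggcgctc
PSAT1 (chr9:78296875-78297124, plus strand): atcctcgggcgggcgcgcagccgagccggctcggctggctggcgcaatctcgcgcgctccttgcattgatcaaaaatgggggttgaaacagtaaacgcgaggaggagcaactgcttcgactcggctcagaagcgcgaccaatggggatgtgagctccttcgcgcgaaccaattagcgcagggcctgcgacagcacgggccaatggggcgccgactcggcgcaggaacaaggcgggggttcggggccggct
The stretches had a G and C share of 66.0% (ASNS), 64.8% (CHAC1) and 65.6% (PSAT1). A match is a description of these letters and not a bound site, and a window without one says nothing of sites elsewhere.

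The 18 libraries of the first experiment held 23749352 to 40111234 estimated counts each, of which a member took 58 to 18399. The 12 of the second held 21672408 to 28290664, with 97 to 11186 for a member. Levels are given in CPM, the count relative to library size, scaled with TMM factors within each experiment. They are not corrected for gene length, so levels are compared between groups and not between genes, and not across the experiments, which differed in library kit. Within groups the coefficient of variation of the 10 genes had a median of 4.08% and a maximum of 16.3% in the first experiment, and 4.43% and 15.5% in the second. KDM6A matched the labels, with 568 to 957 CPM in UTX and HEAA libraries against 7.71 to 17.9 CPM in EV libraries of the first experiment, and 699.6 to 946 CPM against 10.1 to 17.0 CPM in the second. FGFR3 had 2198 to 2624 CPM beside S249C and 1194 to 1377 CPM beside the wild type vector. Of 12 urothelial and epithelial markers, 11 were detected in the first experiment and UPK3A was at 0 in all libraries, and 11 of 12 were in the second table. Markers of leukocytes, endothelium and fibroblasts summed to 24.7 to 68.1 CPM in the first experiment (16 of 16 genes in the table) and 34.4 to 52.8 CPM in the second (12 of 16), with PTPRC at no more than 0.595 CPM and MS4A1 at 0 where listed. The highest of them were LUM (0.34 to 47.0 CPM), COL1A1 (4.96 to 22.1 CPM) and CD68 (2.20 to 14.4 CPM) in the first experiment and COL1A1 (18.6 to 22.9 CPM) in the second. A chi-square of counts per gene between replicates was 11.1 to 13.2 in 6 pairs that involved EV_sphere replicate 2, EV_FGFR3S249C replicate 1 or UTX_FGFR3S249C replicate 3, against 2.08 to 7.39 in the other 24 pairs. Calls that are lost or gained without 1 of these 3 libraries are named beside the results.

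In sphere medium the 10 genes were high in EV cells and lower in cells with UTX or HEAA. A gene was called where the edgeR quasi-likelihood F test gave a Benjamini-Hochberg adjusted p under 0.05 over all genes tested. In EV cells all 10 rose in sphere against full medium, with a median log2 fold change of 1.36 against -0.03 for all genes, where 33.1% of the 19629 genes tested were called higher and 32.4% lower. In UTX cells 9 rose and 1, SESN2, fell between the media (35.1% of all genes higher, 35.4% lower), and the same counts held in HEAA cells, also with SESN2 falling (34.4% higher, 36.3% lower). In UTX cells DESeq2 called 8 higher, without DDIT3, and the rises of DDIT3 and ATF4 were not called with upper quartile factors or total counts. The median over the 10 genes was 0.74 in UTX and 0.77 in HEAA cells, against 1.36 in EV cells. Other scalings moved the median of all genes in these comparisons. Upper quartile factors shifted it by -0.154 in UTX, -0.134 in HEAA and -0.095 in EV cells on the log2 scale, and total counts alone by -0.126, -0.134 and -0.182. Total counts also shifted the UTX against EV comparison in sphere medium by 0.106, and small changes stand against these shifts.

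With UTX against EV in sphere medium all 10 genes fell and 0 rose by edgeR, with 0 rises also at an unadjusted p under 0.05 and by DESeq2, while 25.6% of all genes were called lower and 22.8% higher. With HEAA against EV in sphere medium all 10 likewise fell and 0 rose by edgeR (21.5% lower, 19.9% higher), and the 0 rises held by unadjusted p and DESeq2 too. For both UTX and HEAA, DESeq2 called 9 lower, without DDIT3. Without any 1 of the libraries compared, other than EV_sphere replicate 1, each count of 10 was 9, since DDIT3 was no longer called (edgeR adjusted p = 0.0539 to 0.108 for UTX and 0.0515 to 0.11 for HEAA). In full medium the set divided: with UTX, CHAC1, DDIT3 and SESN2 rose and PHGDH, PSAT1, PSPH, ASNS and SHMT2 fell, which is 3 higher and 5 lower where 28.4% of all genes were higher and 29.2% lower. With HEAA in full medium CHAC1, DDIT3 and SESN2 rose, and PHGDH, PSAT1, PSPH, SHMT2, TRIB3 and ATF4 fell (3 and 6, with 23.2% and 25.3% of all genes). The UTX and HEAA comparisons use the same EV libraries, so they are not independent of each other, and a high level in EV_sphere enters both the medium and the vector comparisons.

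The difference between media in the UTX change was tested as an interaction. It was called for 8 of the 10 genes, each lower in sphere than in full medium, and in the other direction for 0 by edgeR, by unadjusted p and by DESeq2 (16.2% of all genes lower, 21.1% higher). PSPH (-0.12, 95% interval -0.27 to 0.03) and SHMT2 (0.11, -0.01 to 0.23) were not called. For HEAA the interaction was called lower for 7 and higher for 0 (14.3% lower, 18.7% higher), and not for PSPH, SHMT2 and ATF4. The 0 higher held by unadjusted p and DESeq2 too. With upper quartile factors the HEAA interaction was called lower for PSPH (-0.21, edgeR adjusted p = 0.0177) and ATF4 (-0.13, 0.0477). PSPH was also called lower with only the groups compared in the fit (-0.17, 0.0492). Without EV_sphere replicate 1 the SHMT2 interaction was called higher for UTX (0.15, edgeR adjusted p = 0.0417) and for HEAA (0.17, 0.0226).

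**Figure D1:**
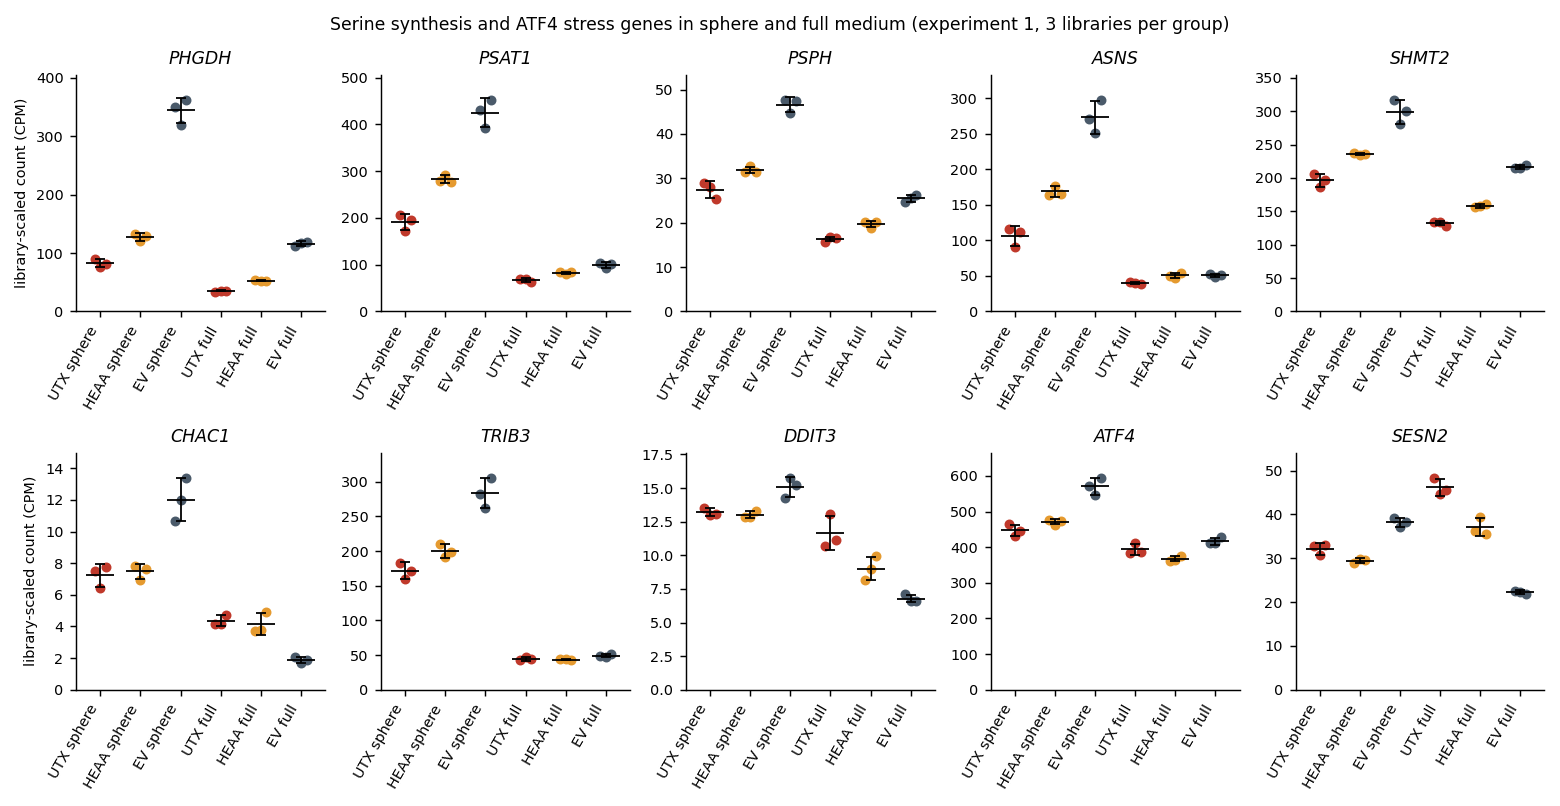
Library-scaled counts (CPM, linear axes from 0) of the 10 genes in the first experiment, 1 point per library, with mean and SD as black bars, sphere medium on the left and full medium on the right of each panel. EV_sphere is the highest group in 9 panels, and in the SESN2 panel UTX_full is the highest with a mean of 46.2 CPM.

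PHGDH, the first enzyme of serine synthesis, had the largest fold range of the set in the first experiment, 9.81-fold between the highest and lowest group means. PHGDH had 90.6, 76.9 and 80.8 CPM in UTX_sphere, 133, 121 and 129 CPM in HEAA_sphere, and 351, 320.0 and 362 CPM in EV_sphere. In full medium it had 34.1, 35.7 and 35.5 CPM with UTX, 54.4, 52.8 and 51.9 CPM with HEAA, and 112, 118 and 119.6 CPM with EV. No 2 groups overlapped, in the order EV_sphere, HEAA_sphere, EV_full, UTX_sphere, HEAA_full and UTX_full, so UTX cells in sphere medium lay below EV cells in full medium. With UTX, PHGDH was 4.16-fold lower in sphere medium (log2 fold change -2.06 ± 0.06 (SE), edgeR adjusted p = 1.33e-17) and 3.32-fold lower in full medium (-1.73 ± 0.06, edgeR adjusted p = 4.46e-16). HEAA gave 2.69-fold lower (-1.43 ± 0.05) and 2.20-fold lower (-1.13 ± 0.06) in those media. The interaction with medium was small beside these changes, at -0.33 ± 0.08 for UTX and -0.29 ± 0.08 for HEAA. Between media PHGDH rose 2.36-fold in UTX cells, 2.41-fold in HEAA cells and 2.96-fold in EV cells.

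PSAT1, the aminotransferase that follows PHGDH, had 206, 171 and 196 CPM in UTX_sphere, 279, 292 and 276 CPM in HEAA_sphere, and 431, 392.3 and 452 CPM in EV_sphere. Its full medium values were 69.2, 69.4 and 62.9 CPM with UTX, 84.5, 79.3 and 83.8 CPM with HEAA, and 104, 92.9 and 102 CPM with EV. All 6 groups were apart, and each sphere group lay above each full medium group. The UTX change was -1.15 ± 0.06 in sphere medium (edgeR adjusted p = 1.21e-12) and -0.57 ± 0.06 in full medium (1.24e-07), with an interaction of -0.59 ± 0.09 (1.76e-05). The medium change was 2.85-fold in UTX, 3.42-fold in HEAA and 4.27-fold in EV cells.

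PSPH, the phosphatase that releases serine, had 29, 28.1 and 25.3 CPM in UTX_sphere, 31.5, 32.8 and 31.4 CPM in HEAA_sphere, and 47.7, 44.6 and 47.4 CPM in EV_sphere. In full medium PSPH had 15.8, 16.8 and 16.5 CPM with UTX, 20.2, 18.8 and 20.1 CPM with HEAA, and 24.8, 25.5 and 26.2 CPM with EV. UTX_sphere and EV_full overlapped and the other neighbouring groups did not. PSPH fell with UTX by 0.76 ± 0.05 in sphere and by 0.64 ± 0.05 in full medium on the log2 scale, both past the threshold. The pseudogene PSPHP1 is a near copy: in the first experiment its counts ran between 9.18% and 11.3% of those of PSPH in HEAA_full, the lowest group, and between 11.8% and 13.2% in UTX_sphere, the highest. In the second experiment they were at most 2.0%, so the PSPH level is uncertain by such shares.

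SHMT2 had 206, 186 and 196 CPM in UTX_sphere, 237, 235 and 236 CPM in HEAA_sphere, and 317, 280.0 and 299.99 CPM in EV_sphere. In full medium it had 134, 134 and 128 CPM with UTX, 156, 157 and 161 CPM with HEAA, and 215, 215 and 219.9 CPM with EV. The 6 groups did not overlap, and, as for PHGDH, EV_full stood above UTX_sphere. The UTX change was -0.61 ± 0.04 in sphere and -0.72 ± 0.04 in full medium, both called, and the difference between them was not. SHMT2 overlaps NDUFA4L2 on the other strand in GENCODE v29, and NDUFA4L2 had 1527 counts in all over the 18 libraries, against 110924 for SHMT2.

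ASNS, asparagine synthetase and a long-used reporter of the ATF4 pathway, had 116, 90.3 and 111 CPM in UTX_sphere, 164, 177 and 165 CPM in HEAA_sphere, and 270.0, 252 and 297 CPM in EV_sphere. In full medium it had 42.0, 40.3 and 38.7 CPM with UTX, 50.3, 47.7 and 53.9 CPM with HEAA, and 52.0, 48.5 and 51.4 CPM with EV. HEAA_full and EV_full overlapped, and UTX_full lay below both. ASNS was 2.58-fold lower with UTX in sphere medium (-1.37 ± 0.07, edgeR adjusted p = 8.92e-13) and 1.26-fold lower in full medium (-0.33 ± 0.08, 0.00111). HEAA gave -0.70 ± 0.07 in sphere medium, and in full medium 0.00 with a 95% interval of -0.16 to 0.16. The interaction was -1.04 ± 0.11 for UTX and -0.70 ± 0.10 for HEAA, and between media ASNS rose 2.63-fold in UTX, 3.33-fold in HEAA and 5.39-fold in EV cells.

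**Figure D2:**
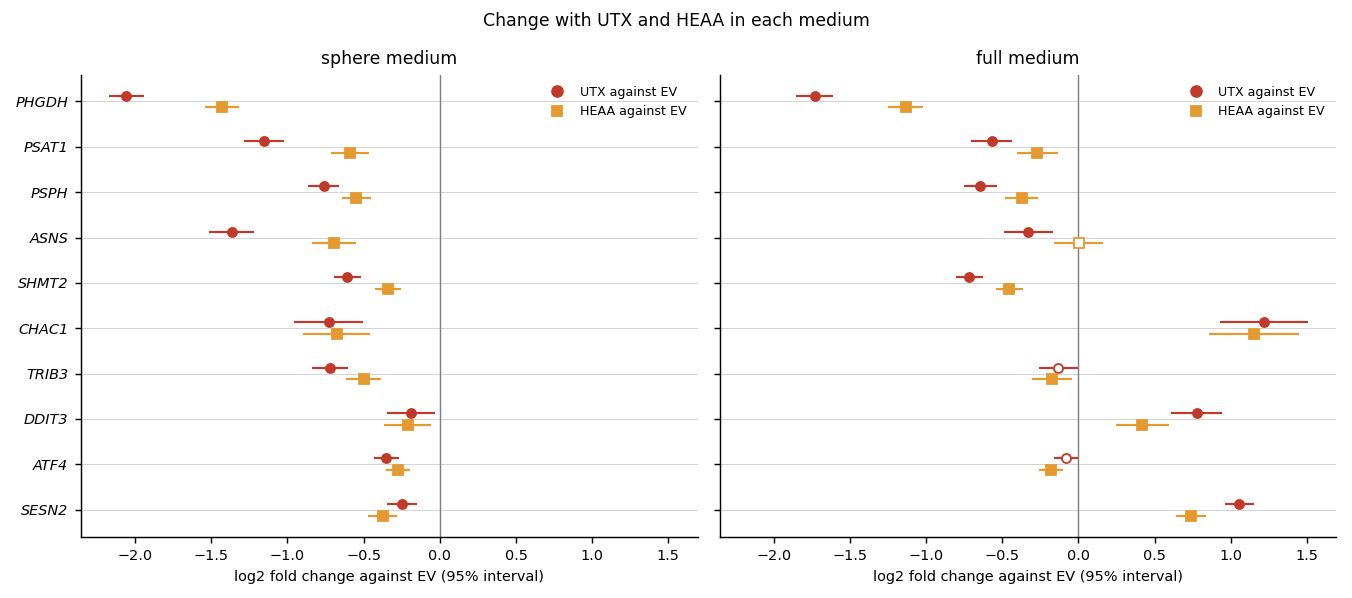
Log2 fold change against EV (horizontal axis, with 95% interval) of the 10 genes, with UTX as red circles and HEAA as orange squares, in sphere medium (left) and full medium (right), where open symbols were not called. In sphere medium all points lie left of 0, and in full medium CHAC1, DDIT3 and SESN2 lie right of 0 while PHGDH stays at -1.73 with UTX and -1.13 with HEAA.

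With UTX, the stress genes CHAC1, SESN2 and DDIT3 fell in sphere medium and rose in full medium, although the fall of DDIT3 was slight. CHAC1, which degrades glutathione, had 7.52, 6.40 and 7.79 CPM in UTX_sphere, 7.81, 6.96 and 7.66 CPM in HEAA_sphere, and 10.7, 11.97 and 13.4 CPM in EV_sphere. In full medium CHAC1 had 4.18, 4.14 and 4.75 CPM with UTX, 3.71, 3.81 and 4.93 CPM with HEAA, and 2.09, 1.70 and 1.86 CPM with EV. EV cells thus held both the highest and the lowest CHAC1 levels, and UTX and HEAA overlapped each other in each medium. CHAC1 was 1.66-fold lower with UTX in sphere medium (-0.73 ± 0.11, edgeR adjusted p = 8.01e-06) and 2.33-fold higher in full medium (1.22 ± 0.14, 1.45e-07), and its interaction of -1.95 ± 0.18 was the largest of the set. In EV cells sphere medium raised CHAC1 6.39-fold, against 1.66-fold in UTX and 1.80-fold in HEAA cells. CHAC1 had the lowest counts of the set, and its errors are the widest.

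SESN2, a sestrin that restrains mTORC1 and is known as a target of both ATF4 and p53, had 32.7, 30.7 and 33.0 CPM in UTX_sphere, 28.9, 29.9 and 29.6 CPM in HEAA_sphere, and 39.2, 37.1 and 38.3 CPM in EV_sphere. In full medium it had 48.3, 44.7 and 45.5 CPM with UTX, 36.2, 39.5 and 35.6 CPM with HEAA, and 22.6, 22.3 and 21.8 CPM with EV. SESN2 was the 1 gene whose highest group was UTX_full. The UTX change was -0.25 ± 0.05 in sphere (edgeR adjusted p = 0.000134) and 1.06 ± 0.05 in full medium (3.28e-14), with an interaction of -1.31 ± 0.07 (1.66e-12). Between media SESN2 was 1.44-fold lower in UTX cells and 1.26-fold lower in HEAA cells, and 1.72-fold higher in EV cells.

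DDIT3 had 13.5, 13.02 and 13.035 CPM in UTX_sphere, 12.9, 12.9 and 13.3 CPM in HEAA_sphere, and 14.2, 15.7 and 15.2 CPM in EV_sphere. In full medium DDIT3 had 10.7, 13.1 and 11.1 CPM with UTX, 8.15, 8.97 and 9.92 CPM with HEAA, and 7.08, 6.62 and 6.60 CPM with EV. UTX_sphere, HEAA_sphere and UTX_full overlapped, with EV_sphere above them and HEAA_full and then EV_full below. The rise with UTX in full medium was 1.71-fold (0.78 ± 0.08, edgeR adjusted p = 3.52e-08). The falls in sphere medium were slight, -0.19 ± 0.08 with UTX (0.0425) and -0.21 ± 0.07 with HEAA (0.026), and both calls were lost with total counts (0.391 for UTX, 0.228 for HEAA), with no filter, in DESeq2 and without single libraries. The call with UTX was also lost with RLE or upper quartile factors and with only the groups compared in the fit (adjusted p up to 0.0999). The rise between media in UTX cells (0.19 ± 0.08, 0.0349) was 0.04 with upper quartile factors (0.687) and 0.06 with total counts (0.465). It was also not called in DESeq2 (0.0503), with only the groups compared (0.0701), or without UTX_full replicate 1 or 3 or UTX_sphere replicate 1 (0.0803 to 0.167). DDIT3 overlaps MARS1 and MBD6 on the other strand in GENCODE v29, and the sources used here do not give the strand setting of the counting. On its own strand DDIT3 overlaps AC022506.1, annotated as protein coding, and MIR616, whose counts are not given here. Over the 18 libraries MARS1 had 107962 counts and MBD6 25887, against 6037 for DDIT3, so DDIT3 levels are uncertain by any reads shared with them.

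TRIB3, a pseudokinase induced by ATF4 and CHOP, had 184, 159.8 and 172 CPM in UTX_sphere, 210.2, 191 and 199 CPM in HEAA_sphere, and 283, 262 and 305 CPM in EV_sphere. In full medium it had 42.5, 47.9 and 44.1 CPM with UTX, 43.7, 43.7 and 43.1 CPM with HEAA, and 48.1, 47.3 and 51.4 CPM with EV. The sphere groups were apart, whereas in full medium UTX overlapped both HEAA and EV. TRIB3 rose 3.84-fold between media in UTX, 4.61-fold in HEAA and 5.78-fold in EV cells. With UTX it was 1.65-fold lower in sphere medium (-0.72 ± 0.06, edgeR adjusted p = 5.58e-10), and in full medium it was not called (-0.13 ± 0.06, 0.0802) except without UTX_full replicate 2 (-0.18, 0.0343), with no filter or with only the groups compared in the fit. The full medium fall with HEAA (-0.17 ± 0.06, 0.0284) was lost with upper quartile factors (0.143), with total counts (0.0972) and without EV_full replicate 3 (0.0966).

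ATF4 RNA, whose protein is set mostly by translation, moved least, with a 1.55-fold range over the 6 groups. ATF4 had 464, 432 and 446 CPM in UTX_sphere, 478, 463 and 472 CPM in HEAA_sphere, and 571, 547 and 593 CPM in EV_sphere. In full medium it had 383, 412 and 387 CPM with UTX, 362, 364 and 376 CPM with HEAA, and 412, 411 and 428 CPM with EV. EV_sphere stood above every other group. ATF4 fell by 0.35 ± 0.04 with UTX in sphere medium on the log2 scale, and it was not called in full medium (-0.08 ± 0.04, edgeR adjusted p = 0.0763) except without UTX_full replicate 2 (-0.11, 0.0206), with no filter or in DESeq2. Its rise between media was 1.13-fold in UTX, 1.28-fold in HEAA and 1.37-fold in EV cells, and the one in UTX cells was not called with upper quartile factors (0.03, 0.477) or total counts (0.06, 0.141).

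**Figure D3:**
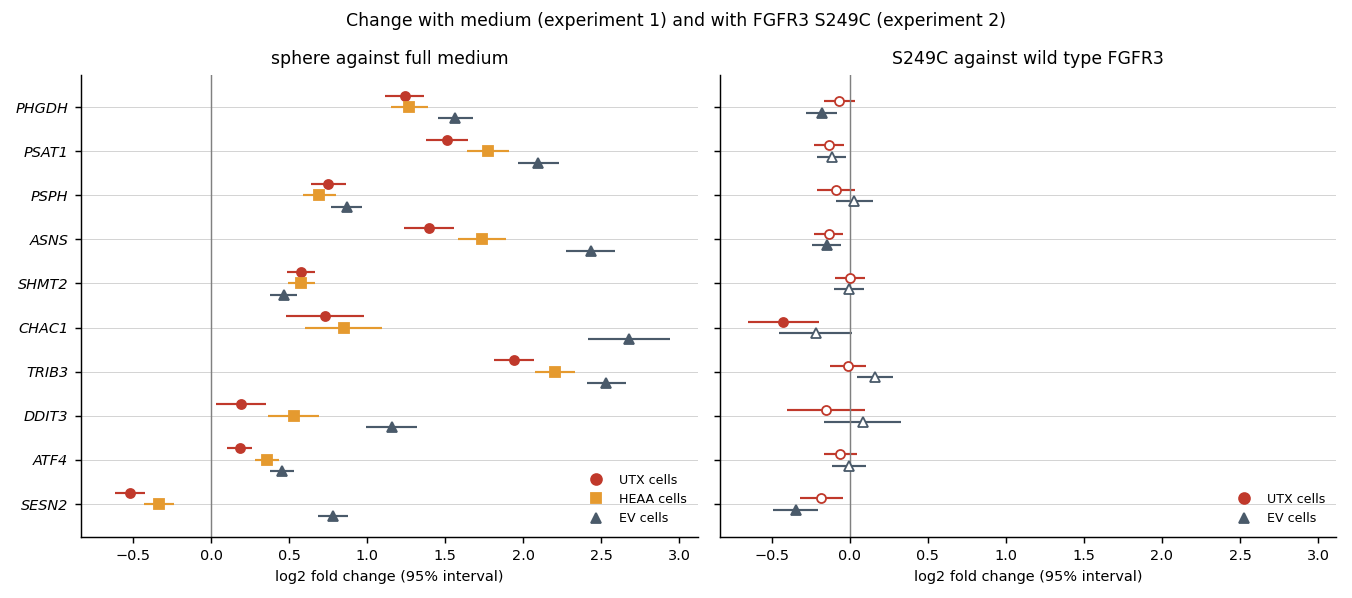
Log2 fold change (horizontal axis, with 95% interval) of the 10 genes for sphere against full medium (left) in UTX (red circles), HEAA (orange squares) and EV cells (dark triangles), and for S249C against wild type FGFR3 (right) in UTX and EV cells, where open symbols were not called. Changes with medium run from -0.52 for SESN2 in UTX cells to 2.68 for CHAC1 in EV cells, while those with S249C lie between -0.43 and 0.16.

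UTX and HEAA were also set against each other, since H1146A and E1148A lie in the catalytic domain. In sphere medium 6 genes were lower with UTX, namely PHGDH, PSAT1, PSPH, ASNS, SHMT2 and TRIB3, and 0 were higher by edgeR or DESeq2 (11.2% of all genes lower, 8.87% higher), with SESN2 higher at an unadjusted p under 0.05. In full medium PHGDH, PSAT1, PSPH, ASNS and SHMT2 were lower and DDIT3 and SESN2 higher with UTX (5 and 2, with 12.4% and 8.95% of all genes). PHGDH was 1.55-fold lower with UTX than with HEAA in sphere medium (-0.63 ± 0.06, edgeR adjusted p = 7.96e-08) and 1.51-fold lower in full medium (-0.60 ± 0.06, 3.99e-07). ASNS differed by -0.67 ± 0.07 in sphere and -0.33 ± 0.08 in full medium. CHAC1 was not called in either medium (-0.05, 95% interval -0.29 to 0.18, in sphere and 0.07, -0.20 to 0.33, in full), nor was ATF4, except that ATF4 in full medium (0.10 ± 0.04) was called with upper quartile factors, total counts, DESeq2 and without UTX_full replicate 1. KDM6A RNA was itself lower in UTX than in HEAA cells, by 0.13 in sphere and 0.26 in full medium on the log2 scale, and its part in these differences was not tested.

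In the second experiment the same genes changed little. With UTX against EV beside S249C, PHGDH, PSAT1 and PSPH fell and SESN2 rose, 3 and 1 of the 10, where 8.62% of all 19399 genes tested were lower and 12.9% higher. Without UTX_FGFR3S249C replicate 3, SHMT2 (-0.13, edgeR adjusted p = 0.0345) and ATF4 (-0.16, 0.0318) were called lower too, which makes 5. Beside wild type FGFR3, PHGDH and PSAT1 fell and SESN2 rose, 2 and 1 of the 10, with 6.01% and 9.06% of all genes. Without UTX_FGFR3WT replicate 1, UTX_FGFR3WT replicate 3 or EV_FGFR3WT replicate 3, PSAT1 was no longer called there, and 1 gene was lower. The UTX change did not differ detectably between the FGFR3 vectors: the interaction was called for 0 of the 10 in each direction by edgeR and DESeq2, with TRIB3 lower at an unadjusted p under 0.05, and for 0.572% of all genes higher and 0.113% lower.

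PHGDH had 84.7, 87.3 and 92.6 CPM in UTX_FGFR3S249C, against 114, 110.4 and 107 CPM in EV_FGFR3S249C. Beside wild type FGFR3 it had 90.7, 90.1 and 96.3 CPM with UTX, against 126, 122 and 127 CPM with EV. The UTX groups lay below both EV groups. The UTX change was -0.32 ± 0.05 beside S249C (edgeR adjusted p = 0.000127) and -0.44 ± 0.05 beside wild type (8.96e-06), with an interaction of 0.11, 95% interval -0.03 to 0.25.

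SESN2 had 17.6, 18.7 and 19.8 CPM in UTX_FGFR3S249C, against 13.3, 14.4 and 13.04 CPM in EV_FGFR3S249C. Beside wild type FGFR3 it had 21.1, 22.5 and 20.2 CPM with UTX, against 17.2, 17.9 and 16.8 CPM with EV. SESN2 was 1.38-fold higher with UTX beside S249C (0.46 ± 0.07, edgeR adjusted p = 0.000163) and 1.23-fold higher beside wild type (0.30 ± 0.07, 0.00594), without overlap in either pair. PSAT1 had 129.5, 134 and 132 CPM in UTX_FGFR3S249C, against 152, 155 and 142 CPM in EV_FGFR3S249C, and 142, 149.7 and 142 CPM in UTX_FGFR3WT, against 162, 158 and 167 CPM in EV_FGFR3WT. Its change was a fall by 0.19 ± 0.04 beside S249C and by 0.17 ± 0.04 beside wild type on the log2 scale. PSPH had 23.9, 25.3 and 25.7 CPM in UTX_FGFR3S249C, against 30.4, 30.3 and 28.8 CPM in EV_FGFR3S249C, and 26.5, 26.6 and 26.7 CPM in UTX_FGFR3WT, against 29.6, 27.3 and 31.0 CPM in EV_FGFR3WT. It was called beside S249C (-0.26 ± 0.06, edgeR adjusted p = 0.00398) and not beside wild type (-0.14 ± 0.06, 0.12), and the difference between those changes was not called (-0.12, 95% interval -0.29 to 0.05).

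The genes that rose or fell with UTX in full medium in the first experiment were not all called in the second, whose UTX and EV vectors differed. CHAC1 had 4.30, 3.61 and 4.38 CPM in UTX_FGFR3S249C, against 4.24, 3.85 and 4.04 CPM in EV_FGFR3S249C, and 5.19, 5.54 and 5.77 CPM in UTX_FGFR3WT, against 4.40, 4.89 and 4.81 CPM in EV_FGFR3WT. The changes with UTX were 0.02 (95% interval -0.22 to 0.25) and 0.23 (-0.0021 to 0.45), and neither was called. DDIT3 had 6.21, 8.46 and 7.20 CPM in UTX_FGFR3S249C, against 8.24, 8.76 and 7.11 CPM in EV_FGFR3S249C, and 7.48, 8.53 and 8.30 CPM in UTX_FGFR3WT, against 7.11, 7.49 and 8.16 CPM in EV_FGFR3WT. All 4 groups of DDIT3 overlapped their neighbours in the order of means, and so did those of ATF4 and SHMT2, whose group means spanned 1.11-fold (DDIT3), 1.09-fold (ATF4) and 1.07-fold (SHMT2). Beside wild type FGFR3, however, SHMT2 in UTX libraries (224 to 230 CPM) lay below that in EV libraries (240 to 247 CPM) without overlap, though this change was not called. ASNS was not called with UTX beside S249C (0.09, 95% interval -0.01 to 0.18) or wild type FGFR3 (0.07, -0.02 to 0.17).

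S249C was also set against wild type FGFR3. FGFR3 RNA was itself higher with S249C, at a mean of 2322 against 1301 CPM in EV cells. In UTX cells it was 2588 against 1243 CPM. The part of the FGFR3 level in the changes below was not tested, and it cannot be told apart from that of the mutation. In EV cells PHGDH, ASNS and SESN2 fell and 0 rose by edgeR and DESeq2 (6.45% of all genes lower, 4.31% higher), with TRIB3 higher at an unadjusted p under 0.05. SESN2 had the largest change (-0.35 ± 0.07, edgeR adjusted p = 0.00454), beside -0.18 ± 0.05 for PHGDH (0.0196) and -0.15 ± 0.04 for ASNS (0.0415). ASNS had 80.0, 81.9 and 81.2 CPM in EV_FGFR3S249C, against 90.5, 88.3 and 90.8 CPM in EV_FGFR3WT, which did not overlap, yet its call was lost without any 1 of the 6 libraries (0.076 to 0.133) and with upper quartile factors, total counts or the replicate block (0.0505 to 0.0798). The call of PHGDH was lost without EV_FGFR3WT replicate 1 or 3 or EV_FGFR3S249C replicate 2 or 3, so that 1 or 2 genes were called. In UTX cells CHAC1 alone was lower with S249C (-0.43 ± 0.11, 0.0447; 1 of 10, with 1.34% of all genes lower and 1.71% higher), and 0 genes were called without any 1 of the 6 UTX libraries, in DESeq2, with the replicate block or with only the groups compared in the fit. The medians over the 10 genes were -0.06 in EV and -0.11 in UTX cells, against 0.00324 and -0.00464 for all genes.

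**Figure D4:**
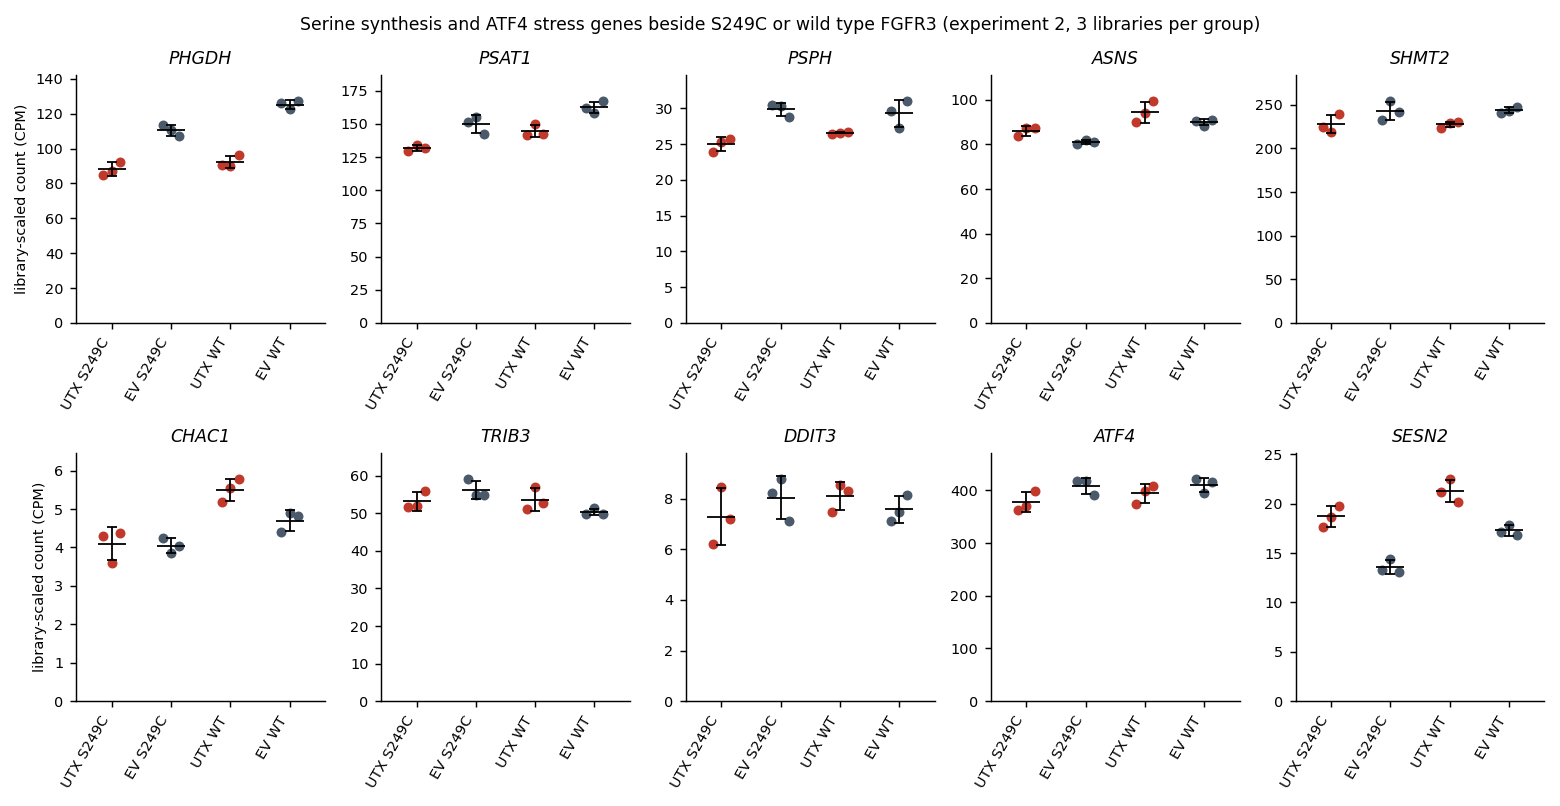
Library-scaled counts (CPM, linear axes from 0) of the 10 genes in the second experiment, 1 point per library, with mean and SD as black bars, S249C on the left and wild type FGFR3 on the right of each panel. UTX lies below EV for PHGDH and above EV for SESN2 in each pair, and the groups of DDIT3 overlap.

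Other genes tied to the same programme were described from lists of known function. Their counts stand against 25.6% of all genes lower and 22.8% higher with UTX in sphere medium (median -0.00831), and 29.2% lower and 28.4% higher in full medium (median 0.04). The 12 tRNA synthetases linked to ATF4 all fell with UTX in sphere medium (median -0.53), and in full medium 10 fell and 1 rose (median -0.28). LARS1, the leucyl synthetase, averaged 118 ± 6.76 CPM in UTX_sphere and 199.7 ± 9.80 CPM in EV_sphere (SD, n = 3 each), and GARS1, the glycyl synthetase, 323 ± 14.2 and 516 ± 30.7 CPM. All 12 rose with sphere medium in EV cells (median 0.76, with 33.1% of all genes higher), as they did in UTX and HEAA cells (medians 0.51 and 0.61). The interaction of UTX with medium was called lower for 8 of these 12 (16.2% of all genes lower, 21.1% higher), and the other 4 were not called. The falls were not particular to this list. Of 8 other cytosolic synthetases, 7 fell and 1 rose with UTX in sphere medium (median -0.25), and all 8 fell in full medium (median -0.50). In EV cells 7 of these 8 rose with sphere medium (median 0.29). Their interaction of UTX with medium was higher for 6, such as FARSB (0.70), and lower for 1, QARS1 (-0.53). FARSB averaged 94.2 ± 2.70 CPM in UTX_sphere and 109.5 ± 3.28 CPM in EV_sphere, and 52.2 ± 3.30 CPM in UTX_full and 98.6 ± 2.03 CPM in EV_full (SD, n = 3 each).

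Of 9 amino acid transporters tested, 6 fell with UTX in sphere medium and 3 were not called, while 4 rose and 2 fell in full medium, and 8 had a lower interaction. With UTX 25.6% of all genes fell in sphere medium, and in full medium 28.4% rose and 29.2% fell. The interaction of UTX with medium was lower for 16.2% of all genes and higher for 21.1%. SLC7A11, the cystine transporter, averaged 348.7 ± 23.4 CPM in UTX_full and 150.1 ± 5.09 CPM in EV_full, and was not called in sphere medium, at 102 ± 3.88 CPM with UTX and 94.8 ± 10.5 CPM with EV. SLC6A9, a glycine transporter, averaged 6.83 ± 0.76 CPM in UTX_sphere and 16.0 ± 1.71 CPM in EV_sphere, and rose 7.01-fold with sphere medium in EV cells. Of 15 genes of folate one-carbon metabolism and glycine cleavage, 10 fell with UTX in each medium, and 1 rose in sphere and 3 in full medium. MTHFD1 averaged 72.1 ± 2.93 CPM in UTX_full and 143 ± 4.15 CPM in EV_full, and MTHFD2, a mitochondrial folate enzyme known as an ATF4 target, rose to 296 ± 22.6 CPM in EV_sphere, against 120.0 ± 3.09 CPM in EV_full.

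Of 24 other ATF4 and CHOP targets tested, 16 fell and 2 rose with UTX in sphere medium (median -0.41), while 8 fell and 10 rose in full medium (median 0.05). NUPR1, a stress-induced chromatin protein, averaged 2.25 ± 0.36 CPM in UTX_sphere and 5.97 ± 1.25 CPM in EV_sphere. KLHL24 had 34.0 ± 2.45 CPM in UTX_full and 7.997 ± 0.32 CPM in EV_full, and 13.3 ± 0.39 CPM in UTX_sphere and 16.2 ± 0.45 CPM in EV_sphere, with an interaction of -2.38. GDF15, a secreted stress cytokine, went against most of the list with UTX in sphere medium and between the media in EV cells. It rose with UTX 2.86-fold in sphere and 3.39-fold in full medium. In EV cells it fell with sphere medium, to 7.24 ± 1.39 CPM in EV_sphere, against 18.8 ± 1.43 CPM in EV_full. In EV cells 17 of the 24 rose with sphere medium and 6 fell, and ADM2, a peptide hormone gene, rose 12.9-fold, to 17.3 ± 0.40 CPM in EV_sphere, against 1.33 ± 0.14 CPM in EV_full.

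The 19 ER chaperones and genes of the XBP1 and ATF6 branches did not move as a block: with UTX 8 rose and 5 fell in sphere medium and 12 rose and 6 fell in full medium. The 5 and 6 that fell are near the 25.6% and 29.2% of all genes that fell in these media. The 8 and 12 that rose are above the 22.8% and 28.4% of all genes that rose. Of 16 genes for eIF2 kinases, eIF2 and eIF2B, 4 rose and 4 fell with UTX in sphere medium and 3 rose and 9 fell in full medium, and the sphere medium counts are near the shares of all genes in both directions. The 9 that fell in full medium are above the 29.2% of all genes, and the 3 that rose are below the 28.4%. EIF2AK3, the ER stress kinase PERK, averaged 31.9 ± 2.57 CPM in UTX_full and 23.1 ± 0.20 CPM in EV_full. Of 13 p53 targets 7 rose and 1 fell with UTX in sphere medium and 12 rose in full medium with 1 not called, and CDKN1A, a cell cycle inhibitor, averaged 257 ± 11.8 CPM in UTX_sphere and 93.7 ± 5.37 CPM in EV_sphere, and 392.4 ± 18.2 CPM in UTX_full and 123 ± 4.95 CPM in EV_full. These values stand beside the rise of SESN2 in full medium, and their part in it was not tested.

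**Figure D5:**
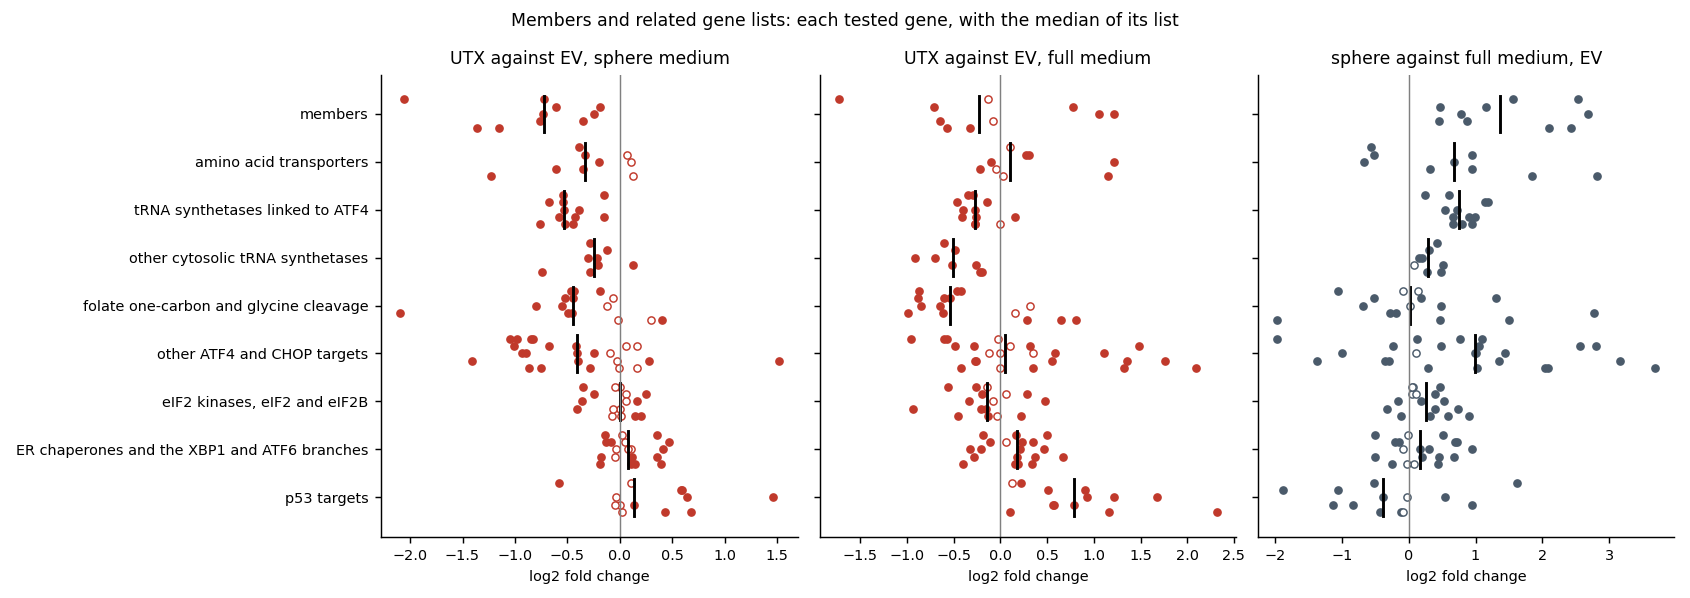
Log2 fold change of each tested gene (points, filled where called) in the 10 genes and 8 related lists, with list medians as black lines, for UTX against EV in sphere medium (left) and in full medium (middle) and for sphere against full medium in EV cells (right). The tRNA synthetases linked to ATF4 lie left of 0 in the left panel, with a median of -0.53, and right of 0 in the right panel, with a median of 0.76. The other cytosolic synthetases have medians of -0.25 and 0.29 in those panels.

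Of 6 relatives of the members, 2 rose and 4 fell with UTX in sphere medium, and 2 rose and 3 fell in full medium. SESN3 averaged 3.65 ± 0.37 CPM in UTX_sphere and 9.29 ± 0.31 CPM in EV_sphere, and 0.86 ± 0.02 CPM in UTX_full and 0.06 ± 0.03 CPM in EV_full, near the detection limit. SESN1, a p53 target, rose with UTX in sphere (0.59) and full medium (0.90). TRIB2 rose to 36.1 ± 2.41 CPM in EV_sphere, against 1.92 ± 0.23 CPM in EV_full. SHMT1, the cytosolic form of SHMT2, averaged 20.5 ± 0.62 CPM in UTX_sphere and 35.6 ± 1.93 CPM in EV_sphere, and 22.4 ± 2.63 CPM in UTX_full and 35.0 ± 1.65 CPM in EV_full.

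In the second experiment fewer genes were called with UTX over all genes (12.9% higher and 8.62% lower beside S249C, 9.06% and 6.01% beside wild type FGFR3), and in these lists too. Beside S249C, 3 of the 12 tRNA synthetases linked to ATF4 fell with UTX and 9 were not called, and beside wild type FGFR3 all 12 were not called. Of 13 p53 targets 6 rose and 1 fell beside S249C and 4 rose beside wild type with 9 not called. SLC1A4, a transporter of serine and other neutral amino acids, averaged 25.9 ± 1.09 CPM in UTX_FGFR3S249C and 14.6 ± 0.69 CPM in EV_FGFR3S249C, and 29.7 ± 0.94 CPM in UTX_FGFR3WT and 21.7 ± 2.32 CPM in EV_FGFR3WT. GLDC, which cleaves glycine, was higher with UTX in both pairs, at 6.58 ± 0.34 CPM in UTX_FGFR3S249C and 2.15 ± 0.45 CPM in EV_FGFR3S249C, and 4.12 ± 0.34 CPM in UTX_FGFR3WT and 2.71 ± 0.24 CPM in EV_FGFR3WT, and it was the 1 gene of the 8 related lists with a called interaction (1.01, edgeR adjusted p = 0.0329).

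Patterns were compared as the root mean square difference of log2(CPM + 1), centred within each experiment, over 30 libraries and 11449 genes with a name and a mean of at least 2 CPM. For ASNS the nearest gene was PSAT1 (0.122), which the set contains, followed by KLF5 (0.186) and ASS1 (0.194), while ASNS itself varied by 0.78. For PHGDH the nearest were KRT13 (0.230), CNKSR3 (0.242) and ICOSLG (0.264), with PSAT1 in place 44 at 0.397 and its own variation at 0.811. For DDIT3 they were ARNTL (0.124), UGP2 (0.124) and TLE1 (0.128), beside an own variation of 0.291. These are descriptions over libraries that share groups and scaling.

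The levels of marker lists moved with the groups as well. The summed level of the epithelial markers was 13500 to 13600 CPM in UTX_sphere, 15600 to 16800 CPM in HEAA_sphere and 23500 to 24900 CPM in EV_sphere, and 6850 to 7250, 6870 to 7140 and 8040 to 8390 CPM in the matching full medium groups. KRT5 alone ranged over 158 to 12800 CPM. The lower sum with UTX in sphere medium came from abundant keratins: KRT5 averaged 3310 ± 196 CPM in UTX_sphere and 12520 ± 540 CPM in EV_sphere, and KRT17 3906 ± 45.4 and 6856 ± 163 CPM (SD, n = 3 each). Of the 11 epithelial markers tested there, 7 rose, among them CDH1, KRT8 and UPK1B, and 4 fell, namely KRT5, KRT17, TP63 and GATA3, with a median of 0.24. The summed markers of leukocytes, endothelium and fibroblasts ran the other way in sphere medium, at 41.2 to 44.1 CPM in UTX_sphere, 34.0 to 37.1 CPM in HEAA_sphere and 24.7 to 28.8 CPM in EV_sphere, and were 60.3 to 68.1, 51.8 to 56.4 and 52.1 to 62.9 CPM in the matching full medium groups. The single genes of that list did not move together. Of the 10 tested with UTX against EV in sphere medium, 2 rose, 2 fell and 6 were not called (22.8% of all genes higher, 25.6% lower). In the second experiment the epithelial sum was 8330 to 9080 CPM in UTX_FGFR3S249C and 7710 to 8030 CPM in EV_FGFR3S249C, and 8500 to 8870 CPM in UTX_FGFR3WT and 9080 to 9480 CPM in EV_FGFR3WT. The other sum was 34.4 to 38 CPM in UTX_FGFR3S249C and 35.7 to 40.1 CPM in EV_FGFR3S249C, and 37.1 to 40.7 CPM in UTX_FGFR3WT and 49.1 to 52.8 CPM in EV_FGFR3WT. In bulk RNA a smaller share of cells with a programme and less of it per cell cannot be told apart, and the part of these shifts in the 10 genes' changes was not tested.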

How the data were processed

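The authors deposited estimated counts per gene (expected counts) as whole numbers, 1 table per experiment, not scaled to library size. Per the submitters' processing notes they used Salmon 0.8 and DESeq2 with hg19 and GRCh37, and per the labels the library kits were TruSeq (first experiment) and NEBNext Ultra II RNA (second). The sources used here do not give the annotation release. Positions and promoters are on GRCh38 and were matched by gene name only.

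Each experiment was fitted alone over all its groups with edgeR 4.0.16 in R 4.3.3: filterByExpr, TMM factors, quasi-likelihood F tests and Benjamini-Hochberg adjustment at 0.05, over 19629 and 19399 genes, among them all 10 members. The common biological coefficient of variation was 4.58% and 6.05%. SE was taken as the absolute log2 fold change divided by the root of F, and intervals are 95%. There were 16 comparisons, 3 of them interactions. The fit was also run on simulated counts with known changes in a small share of genes, which does not test the scaling where a large share changes. Alternatives were other scalings, no filter, DESeq2 1.42.0, only the groups compared, a replicate block and leaving out each library. From each list, genes named were up to 2 called per direction with the largest change and a mean of at least 2 CPM. The members and lists were chosen with earlier results of these data known.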

Additional observations from a re-analysis of the deposited data

Results flagged for a closer look

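The change with UTX or HEAA against EV differed between sphere and full medium in 15 cases by the interaction term of the edgeR fit, and these are listed as the change in sphere minus that in full medium on the log2 scale. For UTX they were -1.946 (CHAC1), -1.305 (SESN2), -1.038 (ASNS), -0.9669 (DDIT3), -0.5905 (TRIB3), -0.5864 (PSAT1), -0.325 (PHGDH) and -0.2699 (ATF4), with edgeR adjusted p between 1.66e-12 and 0.00236. For HEAA they were -1.827 (CHAC1), -1.114 (SESN2), -0.6961 (ASNS), -0.6294 (DDIT3), -0.3282 (TRIB3), -0.321 (PSAT1) and -0.2937 (PHGDH), with edgeR adjusted p between 4.61e-11 and 0.00723. Both sets use the same EV libraries. CHAC1, SESN2 and DDIT3 changed sign between the media, while PHGDH and PSAT1 were lower than in EV cells in both. The fall of DDIT3 in sphere medium was slight, and its call was lost with total counts, with no filter and in DESeq2. With 3 libraries a group, the members' values were not tested for 1 library far from its group, while the chi-square between replicates, given with the depths, set 3 libraries apart.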

How the results depend on the processing

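Over 160 member results and 2260 alternative values, none changed direction where the main or the alternative value was called. Of these values 2178 kept their side of the threshold, 56 lost a call and 26 gained one, and 140 results kept their side throughout. Values that were not called could change sign. CHAC1 with UTX beside S249C was -0.04 without UTX_FGFR3S249C replicate 3 and 0.055 without EV_FGFR3S249C replicate 1. Causes were not tested. Upper quartile factors and total counts each called 1 member higher for UTX against HEAA in sphere medium and for S249C against wild type FGFR3 in EV cells, against 0, as did fitting only the groups compared for S249C. Total counts called 1 member higher in the interaction of UTX and of HEAA with medium, against 0, 5 members lower with UTX beside S249C, against 3, 2695 genes lower with HEAA in sphere medium, against 4212, and 72 genes higher in the UTX by FGFR3 interaction, against 111. With a fit of only the groups compared, 966 genes were lower with UTX beside S249C, against 1672. S249C against wild type in UTX cells had 1 member lower, and 0 with the replicate block, in DESeq2, with only the groups compared and without any 1 library.

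Replicate numbers were not treated as pairs: correlations of same-numbered deviations ran from -0.307 to 0.198 in the first experiment and from -0.229 to 0.4 in the second. The replicate block gave 66 genes higher and 14 lower in the UTX by FGFR3 interaction, against 111 and 22, and 0 members lower for S249C in UTX cells, against 1. It also lost the call of ASNS for S249C in EV cells (-0.15, adjusted p = 0.0505).

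Leaving out 1 library gave 1591 to 2234 genes lower for UTX against HEAA in full medium (2442 with all, fewest without HEAA_full replicate 3) and 998 to 1347 higher in sphere medium (1742, fewest without UTX_sphere replicate 2). In both interactions with medium 0 to 1 member was higher. For UTX beside wild type FGFR3 it gave 1 to 2 members and 758 to 963 genes lower (2 and 1166), and beside S249C 3 to 5 members and 1077 to 1915 genes lower (3 and 1672). For S249C in UTX cells it gave 172 to 321 genes higher and 119 to 214 lower (332 and 259), and in EV cells 1 to 2 members lower, 402 to 748 genes higher and 722 to 1061 lower (3, 836 and 1252). The UTX by FGFR3 interaction had 50 to 193 genes higher and 8 to 55 lower (111 and 22). With 3 libraries a group, small changes of low genes such as CHAC1 and DDIT3 are limited by spread.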
